A study of Mus musculus with 4 samples.

Results

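The genes described here encode the subunits of the Polycomb and Trithorax complexes in mouse embryonic stem (ES) cells that express Nup98-HoxA9, a leukemia-associated fusion of the nucleoporin Nup98 with the homeodomain end of HoxA9. The members were taken from a fixed list of 46 genes, of which 30 belong to Polycomb repressive complexes 1 and 2 and 16 are H3K4 methyltransferases, their partners, H3K27 demethylases, Dot1l or Ash1l. A probe was assigned to a member by its RefSeq accession, which gave 65 probes for 44 of the 46 genes, out of 20284 genes with a probe named in this way. Kmt2a and Setd1b were not analysed here. Of the 44 genes, 42 were well above background in all 4 lines.

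The 4 lines were hybridised once each to a one-colour Agilent mouse array, all on 1 slide. The parental ES line was EB3, into which neither of the FLAG-tagged constructs of the other lines had been put. Clones #1 and #9 were ES cells with a stably inserted FLAG-tagged Nup98-HoxA9 transgene. The last line had a FLAG-tagged HoxA9-Ct transgene, the C-terminal part of HoxA9 without Nup98. The transgene lines were drug-selected colonies made with the Tol2 transposon, so each is 1 clone with its own insertions. Only Nup98-HoxA9 had more than 1 line, and a difference that involves parental or HoxA9-Ct ES rests on 1 array of it.

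Polycomb repressive complex 2 (PRC2) methylates lysine 27 of histone H3 through Ezh1 or Ezh2, and PRC1 ubiquitinates histone H2A through Ring1 or Rnf2. Each PRC1 holds 1 PCGF protein, and is called canonical when it carries CBX and PHC proteins or variant when it carries Rybp or its paralogue Yaf2. Trithorax-type complexes oppose this silencing by methylating lysine 4 of histone H3, with the Wdr5, Rbbp5, Ash2l and Dpy30 (WRAD) module bound to each methyltransferase. In ES cells both systems meet at the promoters of developmental regulators, the Hox clusters among them.

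Most subunits lay within 1.5-fold of parental ES, and Yaf2 was the exception in both clones. Levels are log2 processed signals relative to the 75th percentile of the array, so a level of 0 is the signal of a spot at that percentile, and levels are compared within a probe only. The scanner's own error of a member's level was 0.144 to 0.268 on the log2 scale. Over the 42 members the mean clone ratio to parental ES, on the log2 scale, had a median of -0.05, against -0.07 over the 25529 probes that were well above background in all 4 lines, called detected probes from here on. The median of the members was -0.07 in clone #1 and -0.04 in clone #9, against -0.03 and -0.12 over the detected probes. Of the 42 members, 41 lay within 1.5-fold of parental ES by the mean of the clones, or 97.6%, against 87.9% of those probes. The clones differed from each other by a median SD of 0.08 for the members and 0.14 for all those probes. Each member was read at its brightest probe, whereas the detected probes include the dimmer probes of a gene. These comparisons and the shares below are therefore not matched for signal, and they do not show that the subunits were unusually stable.

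Limma called no member in any contrast at an adjusted p below 0.05. It called 1.41% of all 55562 probes between Nup98-HoxA9 and parental ES, 0.405% between HoxA9-Ct and parental ES, and 1.36% between Nup98-HoxA9 and HoxA9-Ct ES. At an unadjusted p below 0.05, limma had 1 of the 44 members in the first contrast, 0 in the second and 1 in the third. Of all probes, 6.26%, 3.51% and 6.55% passed that cut, and the member was Yaf2 both times. All the spread in this fit comes from the pair of clones, at 1 residual degree of freedom, and limma shrank it to 1 value shared by all probes, so the SE given for a member is not its own spread. The lines with a single array are taken to vary as much as the clones do. The smallest difference that passed between Nup98-HoxA9 and parental ES was 1.89 on the log2 scale, above that of every member, so a missing call does not show that a subunit was level. When limma's variance was allowed to follow the signal, it called 3.07%, 0.556% and 3.13% of the probes in the 3 contrasts. That fit called Yaf2 between Nup98-HoxA9 and parental ES, no member between HoxA9-Ct and parental ES, and Yaf2, Kdm2b and Phc2 between Nup98-HoxA9 and HoxA9-Ct ES.

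By size alone, 1 of the 42 members, Yaf2, was over 1.5-fold higher than parental ES in both clones, where 3.42% of all detected probes were. None was over 1.5-fold lower in both clones, against 3.28% of the probes. None was past 1.5-fold in HoxA9-Ct ES, against 3.25% of the probes higher and 2.08% lower. The mean of the clones was past 1.5-fold against HoxA9-Ct ES for 4 members, Yaf2, Phc2, Kdm2b and Dpy30, and for 11.5% of the detected probes. Against HoxA9-Ct ES, Yaf2 was past 1.5-fold higher in both clones, as were 2.87% of the probes, and Kdm2b was past 1.5-fold lower, as were 3.38%. Both clones lay below both lines without the fusion for 15 members, or above both for 10, where all detected probes gave 32.3% below and 17.3% above. The comparisons share the parental array.

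**Figure D1:**
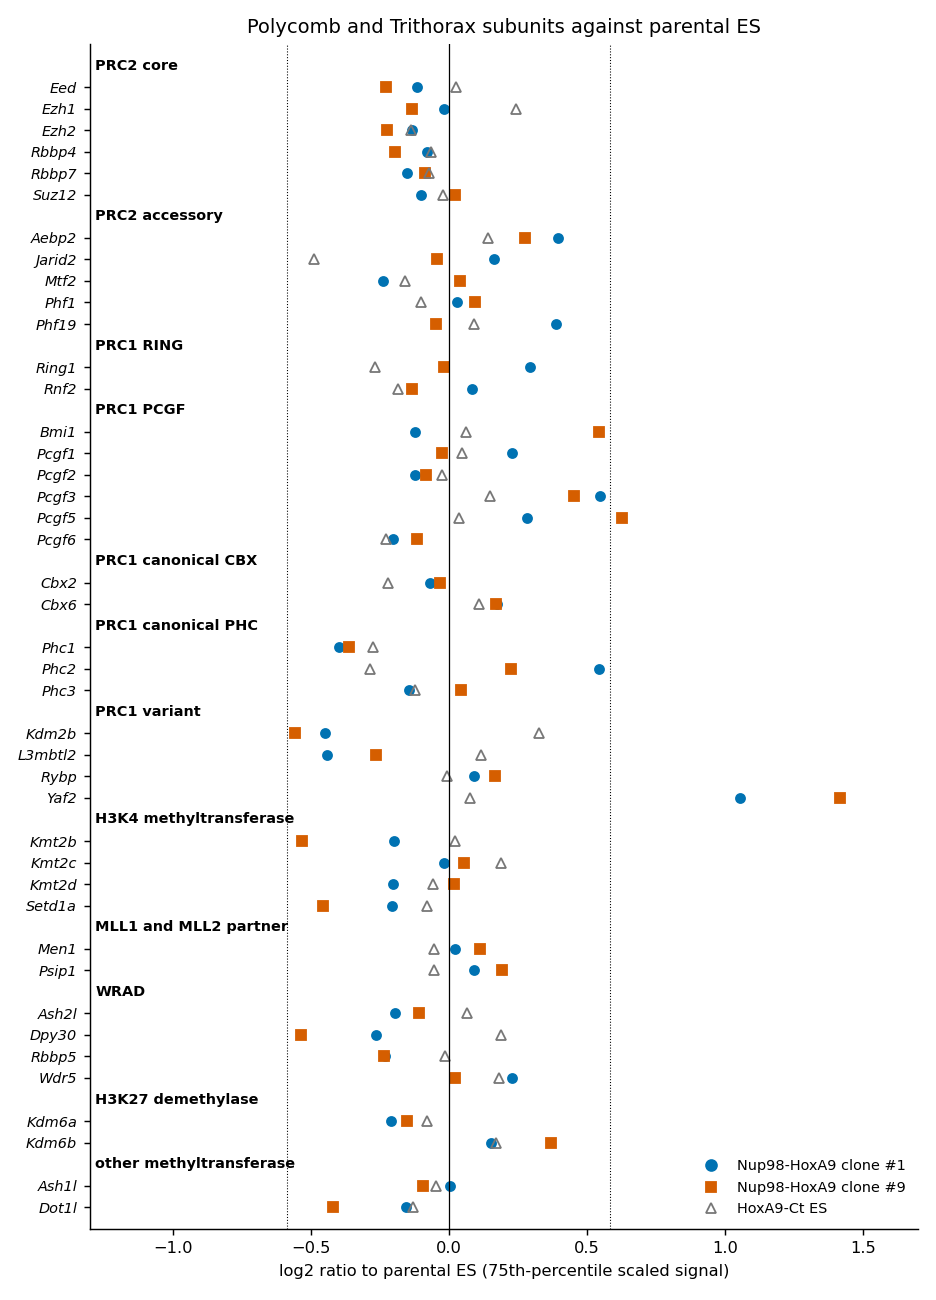
Log2 ratio to parental ES (x axis) of the 42 subunits that were well above background in all 4 lines, grouped by complex, in clone #1 (circles), clone #9 (squares) and HoxA9-Ct ES (triangles), with 1 array each; dotted lines mark 1.5-fold. Yaf2 alone lies beyond the dotted line in both clones, at 1.05 and 1.42, and no triangle lies beyond either line.

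**Figure D2:**
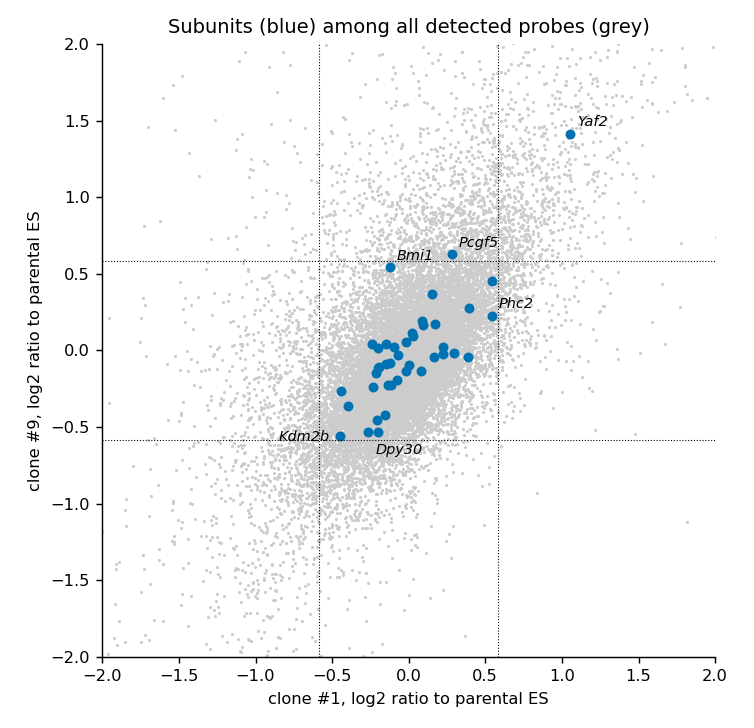
Log2 ratio to parental ES in clone #1 (x axis) and clone #9 (y axis) for the 42 subunits (blue) and all 25529 detected probes (grey), with 345 probes outside the axes; dotted lines mark 1.5-fold. The subunits sit in the middle of the cloud except Yaf2, while Pcgf5 passes 1.5-fold in clone #9 only and Bmi1 comes close to it there.

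Yaf2 and Rybp occupy the same place in variant PRC1, where they bind Rnf2 and help it ubiquitinate H2A. The level of Yaf2 was 0.84 in parental ES and 0.91 in HoxA9-Ct ES, against 1.89 in clone #1 and 2.25 in clone #9. Both clones were thus above both lines without the fusion, by 2.07-fold in clone #1 and 2.67-fold in clone #9 over parental ES, and HoxA9-Ct ES differed from parental ES by 0.08 on the log2 scale, less than the scanner's error. The mean of the clones was 1.23 ± 0.26 (SD, n = 2) above parental ES, with a limma SE of 0.56, an unadjusted p of 0.0265 and an adjusted p of 0.557. The limma fit whose variance follows the signal gave an adjusted p of 8.27e-07 for the same difference, which again rests on a spread shared by probes of like signal. Without probes that are dim in all 4 lines, a fit chosen after seeing the data, it gave 0.199 and no call. Over 11 ways of fitting the adjusted p ran from 8.27e-07 to 0.757 with 3 calls. A second, dimmer Yaf2 probe had levels of -2.27 (parental), -1.36 (clone #1), -1.20 (clone #9) and -2.18 (HoxA9-Ct), the order used for the other members too. This probe also put both clones above both other lines, by 1.87-fold and 2.10-fold over parental ES. Of the 25529 detected probes, 0.964% were higher in both clones by more than the smaller of the Yaf2 differences.

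For Rybp, parental ES had a level of 4.83, clone #1 4.92, clone #9 4.99 and HoxA9-Ct ES 4.82. Its clones stood 0.09 and 0.17 above parental ES on the log2 scale, within or near the scanner's error of 1 level, so the paralogues differed in their ratios. That difference between ratios was not tested.

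Yaf2 lies on chromosome 15, which as a whole was higher in clone #9. Over 637 detected probes of that chromosome the median log2 ratio to parental ES was 0.40 for clone #9 and stayed at 0.02 for clone #1, with 0.03 for HoxA9-Ct ES, against -0.09, -0.02 and 0.00 over the other chromosomes. After each clone's chromosome median was taken away, the mean Yaf2 ratio of the clones was 1.03, and Yaf2 was still past 1.5-fold in both. In clone #1, where the chromosome was level, Yaf2 ranked 14 of 508 detected chromosome 15 genes by its ratio, and in clone #9 it ranked 36. Its immediate neighbours on either side, Gxylt1 and Zcrb1, had log2 ratios of 0.24 and 0.45 in clone #1 and 0.54 and 0.94 in clone #9. Over the 10 nearest detected genes the median ratio was 0.19 in clone #1 and 0.50 in clone #9, and Prickle1, 3 genes away, was the one above Yaf2, at 1.17 and 2.20. What the chromosome contributes to the Yaf2 value in clone #9 was not tested.

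At the probe read for each gene, the other detected chromosome 15 subunits stayed below the chromosome's median in clone #9. L3mbtl2, a subunit of the variant PRC1 that holds Pcgf6, had levels of 2.11 (parental), 1.67 (clone #1), 1.85 (clone #9) and 2.23 (HoxA9-Ct). Both clones were below both other lines, by 0.44 and 0.26 under parental ES. Cbx6, a chromodomain protein of canonical PRC1, had levels of 3.17, 3.34, 3.34 and 3.27 in that order of lines, so the clones were 0.17 above parental ES. The H3K4 methyltransferase Kmt2d, which acts at enhancers, had levels of -0.92, -1.13, -0.91 and -0.98. Its clones lay on either side of parental ES at -0.20 and 0.02.

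**Figure D3:**
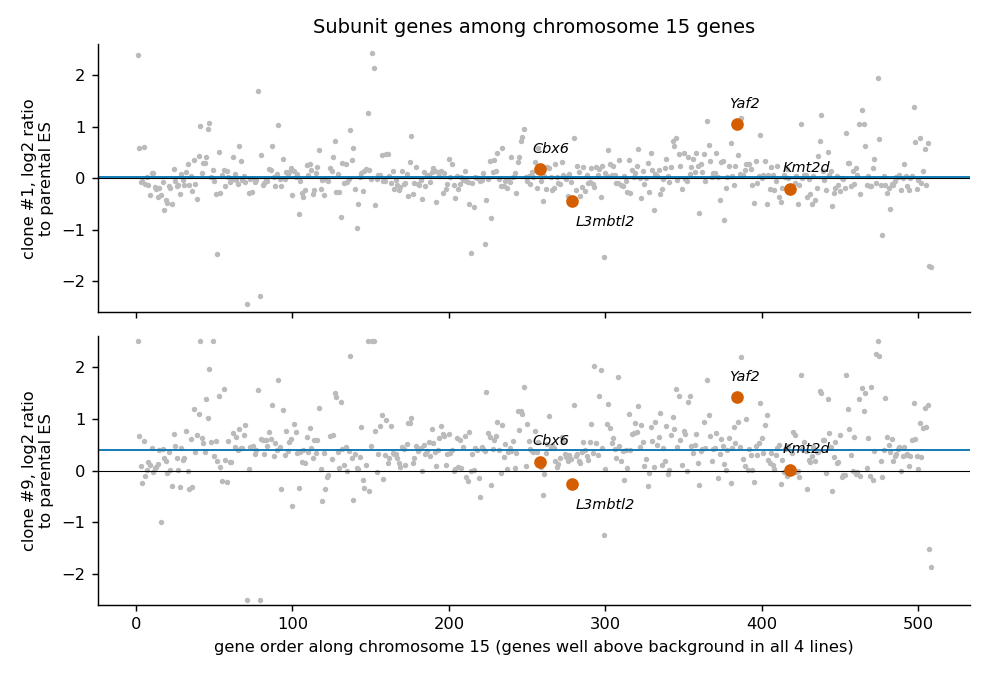
Log2 ratio to parental ES (y axis, drawn up to 2.5 in size, with 9 points set at that limit) of 508 detected chromosome 15 genes in their order along the chromosome (x axis) in clone #1 (top) and clone #9 (bottom); orange points are subunits and the blue line is the median. The median is 0.02 in clone #1 and 0.41 in clone #9, and Yaf2 lies above it in both clones, while L3mbtl2 lies below it.

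Kdm2b was the subunit with the largest difference below HoxA9-Ct ES in both clones. Its protein binds unmethylated CpG islands and brings the variant PRC1 that holds Pcgf1 to them. The level of Kdm2b was 5.53 (parental), 5.08 (clone #1), 4.98 (clone #9) and 5.86 (HoxA9-Ct). The clones were 1.36-fold and 1.47-fold lower than parental ES and HoxA9-Ct ES was 1.25-fold higher, so parental ES stood between them. The mean of the clones was 0.83 below HoxA9-Ct ES, with a limma adjusted p of 1 and, with the variance following the signal, an adjusted p of 0.0024. Of 11 ways of fitting, 2 called Kdm2b in this contrast. The second Kdm2b probe gave 0.31, -0.16, -0.20 and 0.89 and the same order of lines, with the clones 1.07 below HoxA9-Ct ES.

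The PCGF proteins decide which PRC1 forms. Pcgf5 had levels of 1.79 (parental), 2.07 (clone #1), 2.41 (clone #9) and 1.82 (HoxA9-Ct). The clones were the highest lines, at 1.22-fold and 1.54-fold over parental ES, and the second probe gave 1.30-fold and 1.71-fold. Its close relative Pcgf3 was dim, with levels of -3.53, -2.99, -3.08 and -3.38, and both clones were above both other lines, at 0.55 and 0.45 over parental ES. With another background correction, which also adds an offset of 50 to each signal, that mean difference was 0.07 in place of 0.50. Its size thus depended on the processing, and what the offset contributed was not tested. Bmi1, also known as Pcgf4, had levels of -1.64, -1.77, -1.10 and -1.58. Clone #9 was the high line at this probe, 0.67 above clone #1. At the probe read for each gene, Bmi1 was the only member past 1.5-fold between the clones, where 11.0% of all detected probes were. A dimmer Kmt2d probe was past it too. A second and fainter Bmi1 probe had levels of -4.11, -3.90, -3.04 and -3.49, with clone #9 highest, 0.87 above clone #1, and HoxA9-Ct ES 0.62 above parental ES. Pcgf1, Pcgf2 and Pcgf6 had mean clone ratios of 0.10, -0.10 and -0.16.

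Promoters are shown for those of the 10 members with the largest same-way difference in both clones that have a window with a HOX-type core. Posterior HOX proteins such as HoxA9 are known to bind cores of the letters TTTATG and TTTACG, and TGATTTAT when paired with a PBX partner. Each core was searched on both strands of windows from 250 bases before to 50 after an annotated start, taken from RefSeq on build GRCm38.p6. Windows were found for 36 members, 52 windows in all. TTTACG was in 4 of the 52 windows, those of Eed, Kdm2b, Pcgf5 and Rbbp5, and in 3.03% of the 32851 windows of all genes. TTTATG was in 1, that of Aebp2, and in 11.9% of all windows, and TGATTTAT was in none and in 0.977% of all. The member windows had a median GC content of 64.3% and a median of 24 CG pairs, against 52.7% and 7 over all windows, so their base composition differs from the rest. The 4 windows with a core among those 10 members are shown 5′ to 3′, with the core, or its reverse complement, in capitals. A match is a description of letters and does not show binding, and which start the probes report was not established. Kdm2b has 4 windows in the table, Pcgf5 3 and Aebp2 3, and 1 window of each holds a core. The Kdm2b window shown is chr5:122989050-122989349 on the minus strand, that of Pcgf5 chr19:36348079-36348378 on the plus strand, that of Aebp2 chr6:140622413-140622712 on the plus strand, and that of Rbbp5 chr1:132477117-132477416 on the plus strand.
Kdm2b: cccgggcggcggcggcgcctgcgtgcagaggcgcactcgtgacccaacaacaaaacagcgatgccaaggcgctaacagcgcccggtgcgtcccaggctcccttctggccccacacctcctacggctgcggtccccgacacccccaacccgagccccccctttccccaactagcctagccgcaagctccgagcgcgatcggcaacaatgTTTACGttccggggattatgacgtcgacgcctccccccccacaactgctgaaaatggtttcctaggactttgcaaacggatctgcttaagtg
Pcgf5: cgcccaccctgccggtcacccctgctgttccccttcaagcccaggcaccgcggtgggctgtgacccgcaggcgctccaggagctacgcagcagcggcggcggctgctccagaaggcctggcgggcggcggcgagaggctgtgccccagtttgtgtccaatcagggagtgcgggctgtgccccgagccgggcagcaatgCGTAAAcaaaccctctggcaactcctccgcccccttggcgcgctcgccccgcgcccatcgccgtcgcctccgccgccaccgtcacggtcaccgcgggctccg
Aebp2: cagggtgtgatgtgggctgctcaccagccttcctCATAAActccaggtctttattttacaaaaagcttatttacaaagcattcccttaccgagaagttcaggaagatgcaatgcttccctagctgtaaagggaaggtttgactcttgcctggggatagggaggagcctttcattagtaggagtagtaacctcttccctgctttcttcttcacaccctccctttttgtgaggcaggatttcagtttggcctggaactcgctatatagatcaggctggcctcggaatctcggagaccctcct
Rbbp5: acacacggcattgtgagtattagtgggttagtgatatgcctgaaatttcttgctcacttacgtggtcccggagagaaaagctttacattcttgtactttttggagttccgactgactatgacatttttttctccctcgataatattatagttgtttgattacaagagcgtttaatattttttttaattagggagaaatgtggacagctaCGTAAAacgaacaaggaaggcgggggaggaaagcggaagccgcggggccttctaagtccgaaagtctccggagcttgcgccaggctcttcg
Members of both directions carry a core here, since Pcgf5 and Aebp2 were higher in both clones and Kdm2b and Rbbp5 lower. Yaf2 was among the 10 members without a window in the table used.

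The PHC proteins, which join canonical PRC1 particles into larger assemblies, differed in direction. Phc1, a form abundant in ES cells, had levels of 3.62 (parental), 3.22 (clone #1), 3.25 (clone #9) and 3.34 (HoxA9-Ct). All 3 transgene lines were below parental ES, by 0.40, 0.36 and 0.27. Phc2 had levels of 3.17, 3.72, 3.40 and 2.89 in the same order, so the clones were the highest lines and HoxA9-Ct ES the lowest. The mean of the clones was 0.67 above HoxA9-Ct ES for Phc2, with a limma adjusted p of 1 and an adjusted p of 0.0192 when the variance followed the signal. Of 11 ways of fitting, 1 called Phc2 in this contrast. Phc3 differed by 0.05 on average, at -0.15 and 0.04 in the clones.

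The catalytic pair of PRC1 showed no shared direction in the clones. Rnf2, the main H2A ubiquitin ligase of ES cells, had levels of 2.86, 2.94, 2.73 and 2.67, and its clones lay on either side of parental ES. Ring1 had levels of -1.77, -1.47, -1.78 and -2.03, with clone #1 highest and HoxA9-Ct ES lowest. Among the CBX readers, Cbx2 had a mean clone ratio of -0.05. Cbx7 and Cbx8 were not well above background in any line, so no ratio is given for them.

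The PRC2 core subunits all lay close to parental ES. Ezh2, the main H3K27 methyltransferase of dividing cells, had levels of 4.08 (parental), 3.94 (clone #1), 3.85 (clone #9) and 3.94 (HoxA9-Ct). All 3 transgene lines were below parental ES by 0.13 to 0.22. Ezh1 had levels of 3.40, 3.38, 3.26 and 3.64, with HoxA9-Ct ES highest. Eed, which reads the H3K27 mark, had levels of 6.54, 6.42, 6.31 and 6.56, and both clones were the lower lines. Suz12, the scaffold of PRC2, ranged over 0.12 across the 4 lines, with levels of 3.09, 2.99, 3.11 and 3.07. The histone chaperones Rbbp4 and Rbbp7 had mean clone ratios of -0.14 and -0.12. The median of the 6 core subunits was -0.13, and it ran from -0.15 to -0.06 over 6 scalings of the arrays.

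The PRC2 accessory subunits, which direct the core to chromatin, were more mixed. Aebp2 had levels of 1.64, 2.04, 1.92 and 1.78, and both clones were above both other lines, at 0.39 and 0.27 over parental ES. Its second probe gave 0.27 and 0.29. Jarid2, which recruits PRC2 in ES cells, had the largest HoxA9-Ct ratio of any member in size, with levels of 4.19, 4.36, 4.15 and 3.71. HoxA9-Ct ES was 1.40-fold lower than parental ES and was the one low line. Phf19 had levels of 0.17, 0.56, 0.13 and 0.26, with clone #1 alone high. Mtf2 and Phf1 had mean clone ratios of -0.10 and 0.06.

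**Figure D4:**
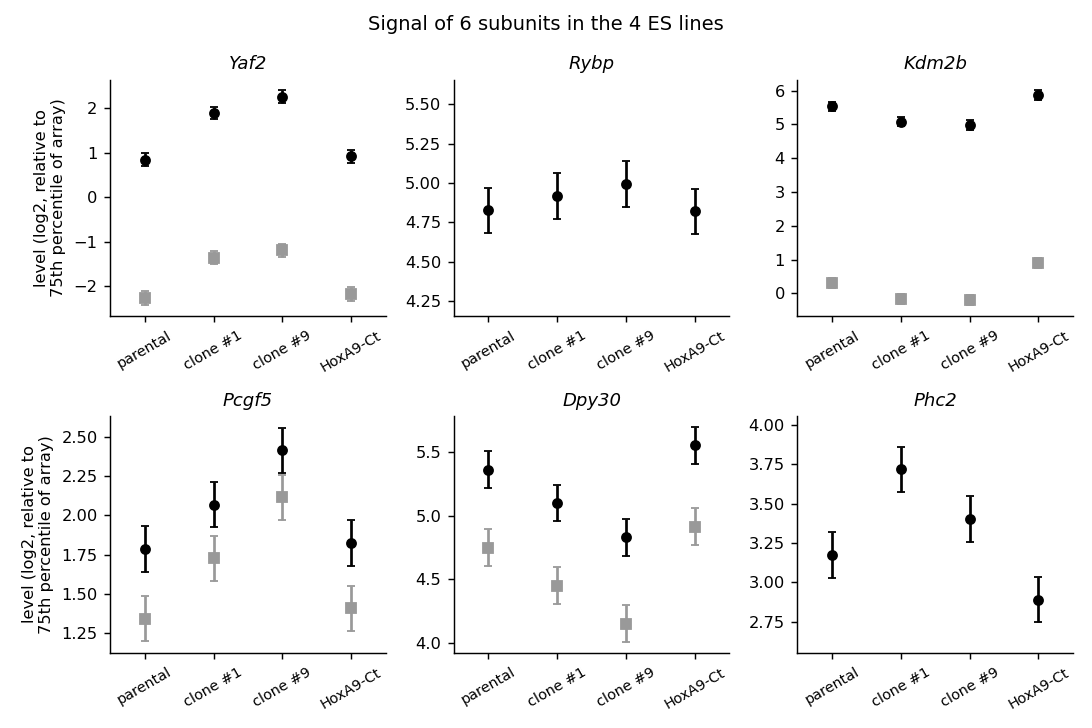
Level (y axis, log2 relative to the 75th percentile of the array, with a different range in each panel) of 6 subunits in the 4 ES lines, 1 array each; bars are the scanner's error of that spot, black circles the brighter probe and grey squares the second probe. Yaf2 is 1.05 and 1.42 higher in the clones than in parental ES, Rybp is level, and Kdm2b and Dpy30 are lower in the clones with HoxA9-Ct ES highest.

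On the Trithorax side, 5 of the 10 measured H3K4 methyltransferases, WRAD subunits and partners had lower signals in both clones, by less than 1.5-fold in their mean. This is a share near the 44.5% of all detected probes that were lower in both clones, so it does not set the group apart. Dpy30, which with Ash2l stimulates all these enzymes, had levels of 5.36 (parental), 5.10 (clone #1), 4.83 (clone #9) and 5.55 (HoxA9-Ct). Both clones were below both other lines, at 0.27 and 0.54 under parental ES, and the second probe gave 0.30 and 0.60. Rbbp5 had levels of 1.27, 1.04, 1.04 and 1.26, with both clones low. Ash2l had a mean clone ratio of -0.15, and Wdr5 had one of 0.12. The median of the 4 WRAD subunits was -0.19 for the mean of the clones and 0.12 for HoxA9-Ct ES, with ranges of -0.22 to -0.13 and 0.06 to 0.15 over the 6 scalings.

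Kmt2b, which methylates H3K4 at developmental promoters in ES cells, had levels of 3.66, 3.46, 3.13 and 3.68. Clone #9 was 0.53 below parental ES and clone #1 0.20 below it. Setd1a, a catalytic subunit that acts at active promoters, had levels of 2.93, 2.72, 2.47 and 2.85, and clone #9 was again the lowest line. The enhancer enzyme Kmt2c had levels of 1.82, 1.81, 1.88 and 2.01 and differed by less than the scanner's error between the clones and parental ES. Men1 and Psip1, which tether Kmt2a and Kmt2b to chromatin, had mean clone ratios of 0.07 and 0.14.

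The H3K27 demethylases remove the PRC2 mark. Kdm6a had levels of -0.12, -0.33, -0.27 and -0.19, and Kdm6b had levels of 1.92, 2.07, 2.29 and 2.09. The transgene lines were all below parental ES for Kdm6a and all above it for Kdm6b. Dot1l, the H3K79 methyltransferase that works with several leukemia fusion partners, had levels of 3.01, 2.85, 2.59 and 2.88, with clone #9 lowest. Ash1l, an H3K36 methyltransferase, had levels of -1.56, -1.56, -1.66 and -1.61 and ranged over less than the scanner's error.

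Independent probes of a gene gave similar mean clone ratios. Of 15 members with more than 1 probe well above background in all lines, 12 had the same sign of the mean clone ratio at all probes, and the probes differed by a median of 0.12. The exceptions were Ezh1, Kmt2d and Rbbp7. None of the 15 differed by over 0.58.

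Other genes of the same pathways were read from 7 fixed lists with 95 genes, of which 90 had a probe. Limma called 2 of them between Nup98-HoxA9 and parental ES, 0 between HoxA9-Ct and parental ES and 1 between Nup98-HoxA9 and HoxA9-Ct ES. Sfmbt2, a Polycomb protein with MBT repeats, was above parental ES in all 3 transgene lines. At the probe read here its levels were -0.59 (parental), 1.67 (clone #1), 1.60 (clone #9) and 0.46 (HoxA9-Ct), so HoxA9-Ct ES was 1.05 above parental ES. The paper lists an Sfmbt2 entry with larger log2 ratios to parental ES in all 3 transgene lines, so the sizes given are those of 1 probe. The limma adjusted p for the clones was 0.00771 against parental ES and 0.631 against HoxA9-Ct ES. Smarca2, a catalytic subunit of the BAF chromatin remodelling complex, was not well above background in parental and HoxA9-Ct ES. Its levels were -2.64 in clone #1 and -4.27 in clone #9. The mean of the clones was at least 1.77-fold above parental ES and at least 1.72-fold above HoxA9-Ct ES. The limma adjusted p was 0.000103 and 0.000232 for these contrasts. Limma used the measured levels, which were below background at -6.27 in parental ES and -6.18 in HoxA9-Ct ES, so its p-values do not apply to the bounds. Clone #1 carried these bounds, at least 3.11-fold and 3.02-fold by itself, while clone #9 was at the lowest level that counts as above background in those lines and gives no bound. Asxl3, a partner of the H2A deubiquitinase Bap1, had log2 ratios of -0.83 and -0.59 in the clones and was not called. The 13 measured COMPASS and MLL accessory genes had a median clone ratio of -0.24, and the 6 H3K4 demethylases one of -0.31. No gene of either list was past 1.5-fold in both clones, where 3.42% of the detected probes were higher and 3.28% lower. The 14 DOT1L and elongation partners had a median of -0.07.

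The cell identity of the lines sets the frame for these levels. All 10 ES cell markers were well above background in all 4 lines, with summed linear levels of 1208 to 1367 times the 75th-percentile signal. Of 8 primitive endoderm markers, limma called 3 between Nup98-HoxA9 and parental ES, Gata6, Sox17 and Pdgfra, all higher in the clones, with log2 ratios of 2.23 and 2.53 for Gata6. Well above background were 8 in both clones, 7 in parental ES and 4 in HoxA9-Ct ES. Their summed level was 34.7 in parental ES, 42.0 and 40.0 in the clones and 16.6 in HoxA9-Ct ES, and it is nearly all Lama1, with log2 levels of 5.07, 5.25, 5.13 and 4.01. Those that did not clear background in HoxA9-Ct ES were Sox17, Foxa2, Pdgfra and Dab2. Of the 7 trophectoderm markers, 6 were well above background in each clone and 4 in each other line, with summed levels of 14.0 in parental ES, 22.8 and 39.3 in the clones and 12.9 in HoxA9-Ct ES. Krt18 and Krt8, both on chromosome 15, carry much of the clone #9 value, with log2 levels of 4.70 and 2.09 there. Limma called Cdx2, Elf5 and Krt8 of these 7 between Nup98-HoxA9 and parental ES, all higher in the clones. Cdx2 and Elf5 did not clear background in parental ES, nor did Elf5 in clone #9. Of 5 neural markers it called Pax6, which was lower in the clones and did not clear background there. It called none of the primitive streak and mesoderm, blood or fibroblast markers in that contrast. Of the 3 measured blood markers, Spi1 and Ptprc were not well above background in any line and Gata1 was in all 4. Fewer cells of a type and less RNA per cell cannot be told apart in bulk RNA, and the part of these cells in the subunit levels was not tested. The Hoxa9 probe had levels of 0.62 and 0.69 in the clones but did not clear the background of either line without the fusion. Whether it lies within the transgene is not given in the sources used here, so it does not check the HoxA9-Ct label.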

How the data were processed

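Total RNA of 4 mouse ES lines was labelled with Cy3 and hybridised to Agilent arrays by the authors, and the intensity values they deposited are spot signals from Agilent Feature Extraction 10.10.1.1 (the version is in the submitters' processing notes), with the flags in the same files. The processed signal is already background-subtracted. Control and outlier spots were left out. Signals were put on the log2 scale relative to each array's 75th percentile and spots of a probe were averaged. Each gene was read at its brightest probe. RefSeq accessions were matched to symbols of GRCm38.p6, which gave 26762 of 55681 probes a symbol. The value table deposited by the authors was used as an alternative, and how its constants were set is not given in the sources used here.

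Limma 3.58.1 in R 4.3.3 was fitted over 55562 probes with 3 groups (parental, Nup98-HoxA9, HoxA9-Ct) and Benjamini-Hochberg adjustment, after being tested on simulated data. Counts past 1.5-fold have no p-value. The number of arrays limits the precision. The clones are independent lines, and with 1 array each the p-values measure only the spread between these arrays. Members and gene lists were chosen with earlier results of these data known. Named in full were members with the 10 largest same-way clone differences, the 5 largest HoxA9-Ct ratios, the 5 largest differences between clones, those on chromosome 15, those not above background and the catalytic subunits. Alternatives changed the background correction, scaling, probe summary, filter, variance model, reference line and clone.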

Additional observations from a re-analysis of the deposited data

How the results depend on the processing

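Limma's count of 0 members became 1 between Nup98-HoxA9 and parental ES (Yaf2) with normexp background correction, with a variance trend, and with trend and robust fitting. Between Nup98-HoxA9 and HoxA9-Ct ES it became 1 with normexp, 3 with trend and 2 with trend and robust fitting. It stayed 0 in the other planned fits with both clones and between HoxA9-Ct and parental ES. The planned fit to probes well above background in at least 1 line called 0 of 30517 probes in every contrast. Its 0 members are therefore uninformative, and the calls of other genes given above were absent there. With trend that filtered fit, chosen after seeing the data, also had 0 members. It called 38 probes between Nup98-HoxA9 and parental ES, 2 between HoxA9-Ct and parental ES and 53 in the other contrast. Yaf2 was past 1.5-fold in both clones in every setting run, and the count of 1 became 2 against HoxA9-Ct ES (with Kdm2b). Leaving out a clone gave 1 to 2, with Pcgf5 added without clone #1. The count between clones went from 1 (Bmi1) to 0 with normexp, with median scaling and at 2-fold. The median member ratio of -0.05 became -0.0005 with quantile normalization, 0.017 in the authors' table, -0.0156 over all probes of a gene, 0.0273 against HoxA9-Ct ES and 0.0236 after centring, and ran from -0.07 to -0.04 leaving out a clone. Median scaling moved the median of all detected probes in clone #9 to -0.18. Of 26 named members, 16 kept their direction throughout; the cause of the other changes was not tested. No paired analysis was possible because the lines are not paired, and the numbers 1 and 9 of the Nup98-HoxA9 lines only name the clones. Cbx7 and Cbx8 are limited by signal over background.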

Other observations

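Most other chromatin writers and remodellers that could be read in all lines lay within 1.5-fold of parental ES. So did 87.9% of all detected probes by the mean of the clones. Of the 21 measured BAF genes, 19 were well above background in all 4 lines, and none of these 19 was past 1.5-fold in both clones, with a median clone ratio of -0.09. The filter left out Smarca2, described above, and Dpf3, which was well above background in clone #9 only, so the 19 do not stand for the whole list. The 9 H3K36 and H3K9 methyltransferases had a median of -0.14, and none was past 1.5-fold in both clones. Among them Nsd2 had log2 ratios of 0.37 and 0.42 in the clones and Nsd1 had -0.37 and -0.49. Past 1.5-fold in both clones were 3.42% of the detected probes higher and 3.28% lower, so having none does not set these short lists apart. Crebbp and Ep300, the CBP and p300 acetyltransferases known to bind Nup98 fusions, had ratios of -0.33 and -0.07 in clone #1 and 0.15 and 0.23 in clone #9. Bcor and Bcorl1 are paralogues that join variant PRC1 with Pcgf1. In the clones they lay on opposite sides of parental ES, at -0.53 and -0.84 for Bcor and 0.54 and 0.86 for Bcorl1. HoxA9-Ct ES was below parental ES for both, at -0.47 for Bcor and -0.22 for Bcorl1. Neither was past 1.5-fold in both clones or called by limma, and the pair was not chosen by a fixed rule.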
